A study of Mus musculus with 7 samples.

Results

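The cytosolic ribosomal proteins are the proteins that, together with ribosomal RNA, build the small (40S) and large (60S) subunits of the ribosome outside the mitochondria. Their genes were taken as the protein-coding rows of the count table whose symbol is Rpl or Rps followed by a number and at most 1 letter, or is Rplp0, Rplp1, Rplp2 or Rpsa. This rule found 80 genes among 55487. They comprise 30 genes of the 40S subunit, 43 of the 60S subunit, 3 of the acidic stalk of the 60S subunit, and 4 paralogs, Rps27l, Rpl39l, Rpl3l and Rpl10l, which resemble a core member and are known mainly from particular settings or tissues. The first 76 are called core genes here.

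RNA was sequenced from bulk inguinal white fat, taken from under the skin of the groin, of NOD/ShiLtJ mice, a strain prone to autoimmune diabetes. In 4 libraries, called imBAT after their label, the mice had received the fraction above 100 kDa of a buffer conditioned by brown adipocytes, injected under the skin at 1.5 mg/kg body weight for 7 days. In 3 libraries, called sham, the mice had received KRBH buffer. The labels give the entry blood glucose of the injected NOD mice as 190 to 230 mg/dL and the interval to RNA isolation as 2 to 8 weeks, without the week of each animal. They give no age, and nothing in them ties a library to a mouse of its own, so the p-values below reflect the spread among these 7 libraries, which may be partly technical.

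Each ribosome carries its core proteins in a fixed ratio, and the genes for them are transcribed together at a high rate in growing cells. Their mRNAs begin with a run of pyrimidines, the 5′ terminal oligopyrimidine (TOP) motif, through which the kinase complex mTORC1, in part by way of the protein LARP1, switches their translation on in response to insulin and amino acids. In fat tissue insulin acts on adipocytes through this route, and activated lymphocytes are also known for making many ribosomes.

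The stretches around the transcription start are shown for the paralogs that rose beside the core genes they resemble, and for the core genes Rps10 and Rps15a, which were among the genes with the largest falls. They run from 60 bases before the annotated start to base 30 from it on, 5′ to 3′ on the gene's strand, from RefSeq promoters on GRCm38.p6. Capitals mark a pyrimidine tract (a C followed by at least 6 bases that are each C or T, searched on the gene's strand) or the motif CCGGAAG on either strand, read there as CTTCCGG; the 2 patterns can overlap by a few letters.
Rps27, chr3:90213619-90213708, minus strand: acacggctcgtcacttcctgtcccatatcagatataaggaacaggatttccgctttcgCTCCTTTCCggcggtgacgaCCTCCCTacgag
Rps27l, chr9:66946026-66946115, plus strand: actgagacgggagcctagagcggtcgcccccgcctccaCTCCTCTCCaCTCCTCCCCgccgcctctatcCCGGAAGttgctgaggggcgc
Rpl39, chrX:37085193-37085282, minus strand: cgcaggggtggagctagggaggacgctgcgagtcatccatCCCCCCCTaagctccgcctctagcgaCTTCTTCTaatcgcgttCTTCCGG
Rpl39l, chr16:10170168-10170257, plus strand: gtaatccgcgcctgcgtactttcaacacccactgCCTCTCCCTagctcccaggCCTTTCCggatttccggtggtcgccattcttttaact
Rps10, chr17:27635215-27635304, minus strand: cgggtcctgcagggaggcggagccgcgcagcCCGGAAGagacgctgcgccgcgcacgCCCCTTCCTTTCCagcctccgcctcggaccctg
Rps15a, chr7:118116118-118116207, minus strand: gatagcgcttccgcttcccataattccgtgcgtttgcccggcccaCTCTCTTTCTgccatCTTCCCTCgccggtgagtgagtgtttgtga

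Of the 80 genes, 60 had a promoter in the RefSeq table. They had 72 listed starts between them, and a gene was counted if the window of any of its starts matched. A pyrimidine tract was found for 42 of the 60 genes (70%), against 41.7% of 27025 genes with a promoter. The motif CCGGAAG was found for 14 (23.3%), against 5.92%. Each of the 6 windows shown holds a tract. For Rps27l 2 starts are listed, and the window shown is that of the first. In the windows shown for Rps27l and Rpl39l every tract ends before the annotated start. The other windows shown have a tract that spans it or lies after it. The window includes 60 bases before the start, so a tract counted here need not begin the mRNA. Among genes with a promoter the tract was present in 14 of 18 that fell in imBAT and in 26 of 39 that were not called. These matches describe the letters near the annotated start, which need not be the start used in fat.

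Libraries held 43360208 to 63650016 counts in imBAT and 41025786 to 44983250 in sham. Of 26393 genes tested, 43.5% were called in either direction by edgeR's quasi-likelihood test (adjusted p under 0.05), with 6407 higher and 5084 lower in imBAT. All 15 white adipocyte markers were detected in every library, though Lep stood at only 0.15 CPM in sham replicate 1. Detection alone does not show that adipocytes made up most of a library, and the groups differed widely in cell markers. The adipocyte markers, from Adipoq to Car3, summed to 20300 to 48230 TMM-scaled CPM (counts relative to library size) in imBAT and 3205 to 6559 CPM in sham, and all 15 rose. The 17 T cell markers summed to 341.7 to 1143 CPM in imBAT and 2120 to 2744 CPM in sham and all fell, and 12 of 13 B cell markers fell, with sums of 708.0 to 1765 CPM in imBAT and 3343 to 3665 CPM in sham. Macrophage markers rose in 8 of 11 and erythroid markers in 5 of 5. The macrophage sums overlapped between the groups. They were 2648, 929.3, 2211 and 2042 CPM in imBAT replicates 1 to 4 and 1180 to 1314 CPM in sham. The proliferation markers summed to 150.8 to 236.9 CPM in imBAT and 355.1 to 534.3 CPM in sham, with 12 of 13 lower. In bulk tissue, fewer cells of a type and less RNA per cell cannot be told apart, and the part of these markers in the results below was not tested.

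Of the 76 core ribosomal protein genes 24 fell in imBAT (31.6%, beside 19.3% of all tested genes). Most of the others had smaller differences of the same sign, while the paralogs Rps27l and Rpl39l rose. No core gene was called higher by edgeR (0 also at an unadjusted p under 0.05) or DESeq2, and limma voom called 1, Rpl41. In fits that left out a single sham library, the share of ribosomal protein genes that fell was near or below that of all genes. Ribosomal protein genes took 2.107, 2.024, 1.471 and 2.024% of all counts in imBAT replicates 1 to 4, against 3.053, 2.810 and 2.673% in sham replicates 1 to 3. The groups did not overlap in this share. After TMM scaling, which sets libraries on the level of their typical gene, the summed level was 23440, 21070, 18200 and 21040 CPM in imBAT and 27690, 23970 and 23340 CPM in sham, so that imBAT replicate 1 lay just above sham replicate 3.

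**Figure D1:**
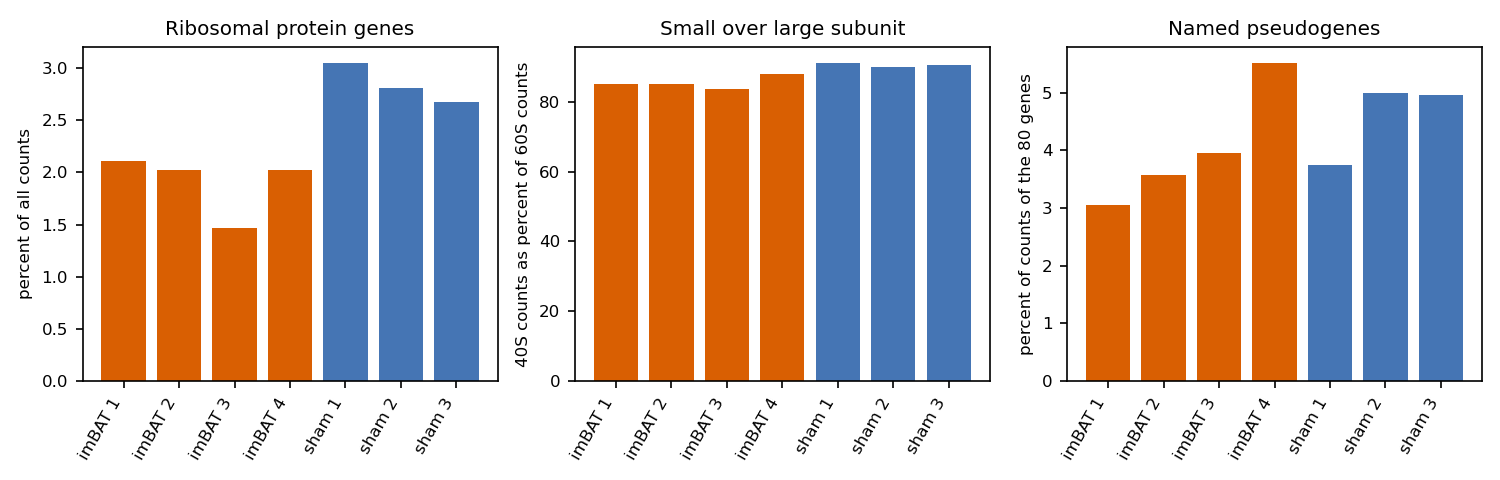
Counts of ribosomal protein genes as a percent of all counts (left), counts of 40S genes as a percent of those of 60S genes (middle) and counts of named pseudogenes as a percent of those of the 80 genes (right), in each imBAT library (orange) and sham library (blue). The share of all counts is 1.471 to 2.107% in imBAT and 2.673 to 3.053% in sham, and the 40S to 60S ratio is lower in every imBAT library than in any sham library.

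Of the 80 genes, 79 passed the expression filter, and Rpl10l did not. Of these 24 fell (30.4%, where 19.3% of all tested genes were called lower) and 2 rose (2.53%, against 24.3% of all tested genes). The median log2 fold change over the 79 was -0.26, beside -0.01 over all tested genes. In 72 of the 76 core genes the fold change was below 0, with a range of -0.90 to 0.15 and quartiles of -0.38 and -0.18 on the log2 scale. The 4 core genes above 0, Rpl10, Rps2, Rpl15 and Rpl41, were not called by edgeR; limma voom with quality weights called Rpl41 higher (0.26, adjusted p = 0.0449), and under upper-quartile scaling all 76 core genes were below 0. Among the 76 core genes, 37 had every imBAT library below every sham library and none had every imBAT library above (25.2% and 26.8% of all tested genes).

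**Figure D2:**
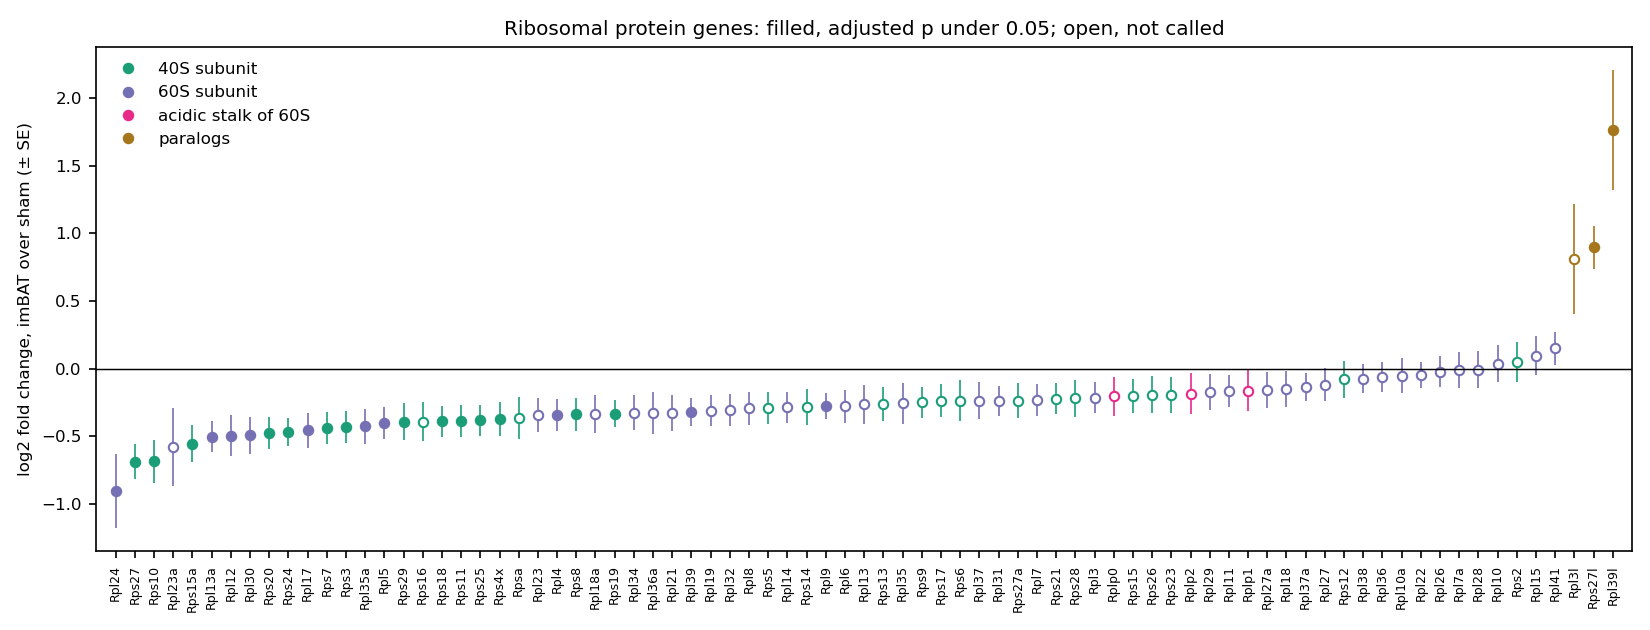
Log2 fold change of imBAT over sham for the 79 tested ribosomal protein genes, ordered by size, with bars of 1 SE from edgeR. Filled points are called and open ones are not; the core genes lie between -0.90 and 0.15, and the 3 paralogs lie above them at 0.81, 0.90 and 1.76.

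How many core genes passed the test depended on the scaling, on single libraries and on the use of a replicate block. Upper-quartile scaling moved the median of all genes to -0.25 and gave 36.6% of all calls as higher in place of 55.8%. It called 67 ribosomal protein genes lower (84.8%, beside 31.0% of all genes). The median of the ribosomal protein genes minus that of all genes was -0.25 under upper-quartile scaling and -0.26 under TMM. Over all fits this difference ran from -0.324 without imBAT replicate 1 to -0.164 under limma voom. Without sham replicate 1, 6 genes fell (7.59%, where 15.4% of all genes did), without sham replicate 2, 7 fell (8.86%, against 11.1%), and without sham replicate 3, 10 fell (12.7%, against 11.3%). Without imBAT replicate 4, 15 fell (19.0%, against 18.2%). In these 4 fits the excess of lower calls over the share of all genes was thus lost or turned round, or came to under 2 percentage points. It was also turned round with all libraries kept and the number that opens their titles as a replicate block. There 13 genes fell (16.5%, against 17.6%). Sham replicate 1 was the highest of all libraries for 68 of the 79 genes, and imBAT replicate 3 the lowest for 58. Without sham replicate 1 the median was -0.20, and -0.194 after subtracting that of all genes. Without imBAT replicate 3 it was -0.25, and -0.182 after subtracting that of all genes, which was -0.068 in that fit.

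**Figure D3:**
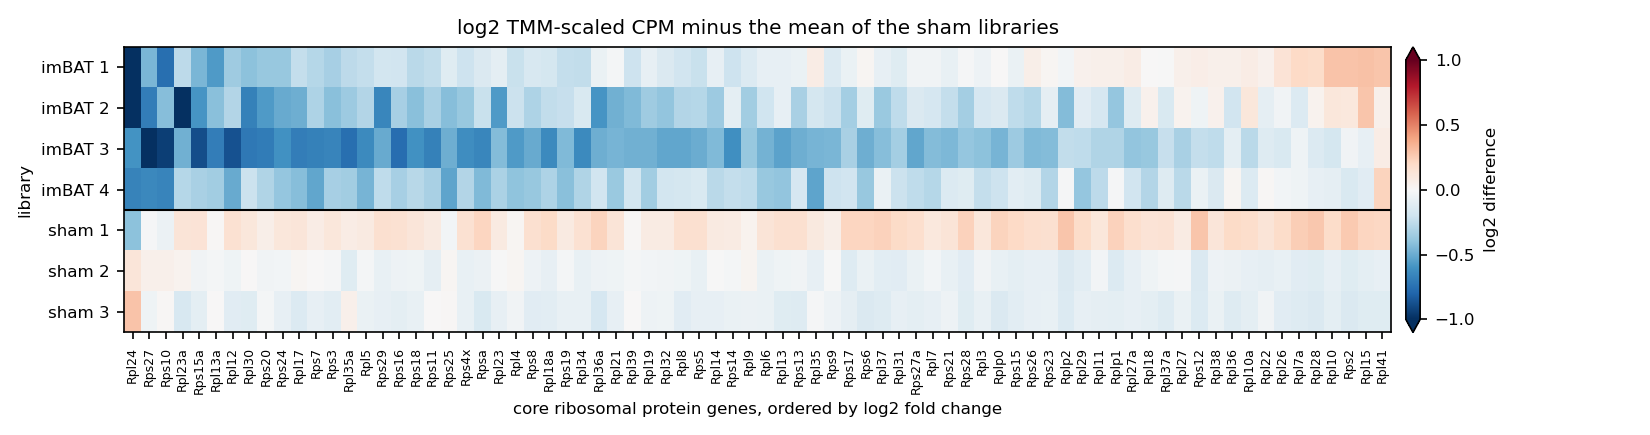
Level of each core gene in each library as log2 TMM-scaled CPM minus the mean of the sham libraries, with imBAT libraries above the line and sham libraries below it. The library imBAT 3 is the lowest for most genes, and sham 1 is the highest for most.

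Genes of the 40S subunit made up 14 of the 24 falls. Of 30 tested 40S genes 14 fell (46.7%, median -0.33), and of 43 60S genes 10 fell (23.3%, median -0.26), beside 19.3% of all tested genes. The difference between these counts was not tested. Counts of the 40S genes were 85.1, 85.3, 83.9 and 88.1% of those of the 60S genes in imBAT replicates 1 to 4, and 91.3, 90.1 and 90.8% in sham replicates 1 to 3. This ratio does not depend on how libraries are scaled, and the groups did not overlap.

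Rps27, a zinc-binding protein of the 40S subunit, stood at 157.5, 133.8, 108.5 and 138.1 CPM in imBAT replicates 1 to 4 and at 214.3, 224.4 and 210.1 CPM in sham. All 4 imBAT libraries lay below the lowest sham library. The log2 fold change was -0.69 ± 0.13 (SE, edgeR adjusted p = 0.00403), and it lay between -0.77 and -0.65 when each library was left out in turn. Rps27, Rps20, Rps24 and Rpl13a were called lower under every other tool, filter and scaling tried and without any single library.

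Rps20 and Rps24 are also 40S proteins, of which Rps20 sits in the head of the subunit. Rps20 stood at 269.3, 236.7, 215.9 and 284.4 CPM in imBAT and at 363.4, 341.0 and 344.9 CPM in sham (log2 fold change -0.48 ± 0.12, edgeR adjusted p = 0.0118). Rps24 stood at 384.4, 352.2, 328.7 and 382.5 CPM in imBAT and at 539.2, 489.1 and 471.8 CPM in sham (-0.47 ± 0.11, edgeR adjusted p = 0.00839). For both genes the imBAT libraries all lay below the sham libraries. Both were named after their values were seen, for their stable calls.

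Rps15a, a protein of the 40S body, stood at 183.8, 168.0, 136.6 and 201.4 CPM in imBAT and at 276.7, 245.9 and 236.0 CPM in sham. Its log2 fold change was -0.55 ± 0.14 (edgeR adjusted p = 0.0132), a call that did not hold when sham replicate 1 was left out (edgeR adjusted p = 0.0516). Rps19, whose human counterpart is the gene most often mutated in Diamond-Blackfan anaemia, fell to 193.8 ± 15.1 CPM in imBAT (SD, n = 4), against 243.8 ± 14.6 CPM in sham (n = 3), and X-linked Rps4x fell to 408.1 ± 48.6 CPM, against 528.2 ± 48.3 CPM. Their adjusted p was 0.0268 and 0.0416 in edgeR, and both calls were lost on leaving out any one sham library or imBAT replicate 4, and that of Rps4x also on leaving out imBAT replicate 2 or with the title number as a block. Rps6, the substrate of the S6 kinases, had 308.8 ± 49.7 CPM in imBAT and 363.4 ± 48.4 CPM in sham and was not called (-0.24 ± 0.15, adjusted p = 0.232), except under upper-quartile scaling.

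Of the 5 largest called falls among the ribosomal protein genes, 3 belong to genes whose reads are hard to assign. Rpl24, a 60S protein that bridges the subunits, Rps10, at the mRNA side of the 40S head, and Rpl13a, a 60S protein known from translation silencing in human myeloid cells, share 47.0, 20.6 and 35.4% of their annotated exon bases with another gene on the same strand. These are the highest shares among the 80 genes, and their sham levels of 1.68, 10.7 and 23.3 CPM are the lowest of the 76 core genes, of which 8 stood under 100 CPM. Whether reads shared with these genes shaped the fold changes was not tested.

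Rpl24 stood at 0.77, 0.72, 1.08 and 1.03 CPM in imBAT and at 1.24, 1.79 and 2.00 CPM in sham, from 42 to 103 counts a library. Its log2 fold change of -0.90 ± 0.27 (edgeR adjusted p = 0.0277) was not called without imBAT replicate 1 or 2 or without sham replicate 2 or 3, where adjusted p reached 0.116, or with the title number as a block. Gm28037 and Gm45713, which overlap Rpl24 and Rpl13a, had no count in any library. RPS10-NUDT3, which overlaps Rps10 in GENCODE M21, had no row of that name in the count table. Rps10 had 6.63 ± 0.99 CPM in imBAT and 10.7 ± 0.4 CPM in sham (-0.68 ± 0.16, edgeR adjusted p = 0.00966). Its processed pseudogene Rps10-ps1 held more reads than the gene, at 12.8 to 22.6 CPM in imBAT and 18.6 to 24.1 CPM in sham. Summed with its named pseudogenes, Rps10 was not called (-0.53, adjusted p = 0.0551). Rpl13a had 16.5 ± 1.7 CPM in imBAT and 23.3 ± 0.3 CPM in sham (-0.50 ± 0.12, edgeR adjusted p = 0.00935), with the groups apart. Rpl23a, named after its values were seen, shares 59.7% of its exon bases with Tlcd1 on the other strand and was not called (-0.58 ± 0.29, adjusted p = 0.136), while Tlcd1 rose (1.88 ± 0.30, edgeR adjusted p = 0.00255).

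Processed copies are common in this family, with 316 rows named as pseudogenes of 61 of the core genes. They held 3.05, 3.57, 3.95 and 5.52% as many counts as the 80 genes in imBAT replicates 1 to 4, and 3.75, 5.0 and 4.96% in sham. The groups overlapped in this share. When each gene was summed with its named copies, 26 genes fell, of which 23 were among the 24, with a median of -0.28.

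Among the 60S genes, Rpl5, which with Rpl11 carries 5S ribosomal RNA and binds the p53 regulator Mdm2, fell to 319.9 ± 39.0 CPM in imBAT (n = 4), against 422.2 ± 24.2 CPM in sham (n = 3; edgeR adjusted p = 0.0262). Its call was lost on leaving out any one sham library or imBAT replicate 4. Rpl11 itself had 238.6 ± 26.9 CPM in imBAT and 267.4 ± 19.5 CPM in sham and was not called (-0.16 ± 0.12, adjusted p = 0.273), except under upper-quartile scaling. The difference between these partners was not tested. Rpl39, a very short protein that lines the tunnel through which the new chain leaves, fell to 108.0, 91.8, 89.4 and 110.0 CPM in imBAT, against 125.5, 123.1 and 125.2 CPM in sham (-0.32 ± 0.10, edgeR adjusted p = 0.0341). Its call was also lost on leaving out any one sham library or imBAT replicate 2, with no expression filter, and with the title number as a block. Other 60S genes did not pass the test: Rpl3, at the peptidyl transferase centre, lay at -0.21 ± 0.11, Rpl38, known in mice for its role in Hox mRNA translation, at -0.07 ± 0.11, and X-linked Rpl10 at 0.04 ± 0.14, with the sign reversed under upper-quartile scaling (-0.20), which called Rpl3 and Rpl38 lower.

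The acidic stalk, which recruits elongation factors to the 60S subunit, was not called in any of its 3 genes under TMM scaling (0 also at an unadjusted p under 0.05 in edgeR, and 0 by DESeq2 and limma voom), and in all 3 under upper-quartile scaling (edgeR adjusted p = 0.0289, 0.0387 and 0.0335 for Rplp0, Rplp1 and Rplp2). Rplp0, its base, had 721.4 ± 94.5 CPM in imBAT and 830.2 ± 116.8 CPM in sham. Rplp1 and Rplp2, which form dimers on it, had 574.0 ± 84.5 and 495.5 ± 66.8 CPM in imBAT and 642.6 ± 93.8 and 562.6 ± 98.3 CPM in sham. The groups overlapped for each, and the log2 fold changes were -0.20, -0.16 and -0.18. By mean CPM, Rpsa, also known as the 67-kDa laminin receptor precursor, was the highest of all 80 genes in both groups. It stood at 610.5 to 869.9 CPM in imBAT and 862.9 to 1115 CPM in sham, and just below Rplp0 in imBAT replicate 4. It was not called (-0.36 ± 0.16, adjusted p = 0.0900), nor was Rps9, a 40S protein with 610.6 ± 57.1 CPM in imBAT and 725.2 ± 27.3 CPM in sham (-0.25 ± 0.11, adjusted p = 0.101); both were called lower under upper-quartile scaling.

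Per kilobase of annotated exon, Rplp1, Rps15, Rpl36, Rpl8 and Rplp0 were the most abundant, at 1150, 665.6, 660.6, 423.6 and 434.9 CPM per kilobase in imBAT and 1288, 764.6, 688.9, 519.0 and 500.4 CPM per kilobase in sham. None of the 5 was called under TMM scaling, and all 5 were called lower under upper-quartile scaling. Annotated exons include retained introns, and with the length of the principal transcript 2 of these 5 genes remained among the top 5. The order of levels therefore rests on the chosen length.

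The paralogs Rps27l and Rpl39l rose, while the core genes they resemble fell. Rps27l, a p53-responsive relative of Rps27, stood at 22.2, 19.2, 26.3 and 18.7 CPM in imBAT replicates 1 to 4 and at 13.1, 10.3 and 11.4 CPM in sham. Every imBAT library lay above every sham library. The log2 fold change was 0.90 ± 0.16 (edgeR adjusted p = 0.00342), and between 0.74 and 0.99 with each library left out. Reads of Rps27l amounted to 14.1, 14.4, 24.2 and 13.5% of those of Rps27 in imBAT, and to 6.10, 4.61 and 5.42% in sham. This ratio was 3.01-fold higher in imBAT.

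Rpl39l, which in mice is best known from male germ cells, was near the limit of detection, with 29 to 62 counts in imBAT and 14 to 16 in sham. It stood at 0.85, 0.47, 1.53 and 1.29 CPM in imBAT and at 0.31, 0.28 and 0.31 CPM in sham, with the groups apart. The log2 fold change was 1.76 ± 0.44 (edgeR adjusted p = 0.0130) and the largest rise of the family. A filter of 1 CPM in 3 libraries removes the gene. Its reads were 0.79, 0.52, 1.71 and 1.18% of those of Rpl39 in imBAT and 0.25, 0.23 and 0.25% in sham.

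Rpl3l, which takes the place of Rpl3 in heart and skeletal muscle, had 2.21, 0.72, 1.21 and 1.29 CPM in imBAT and 0.84, 0.54 and 0.93 CPM in sham. The groups overlapped and it was not called (0.81 ± 0.41, adjusted p = 0.133), except without imBAT replicate 2 or with the title number as a block. The 12 skeletal muscle markers summed to 138.1, 23.4, 78.8 and 32.4 CPM in the same imBAT libraries and to 25.5, 33.1 and 33.3 CPM in sham, with 6 higher and 1 lower. Rpl3l and these markers were both highest in imBAT replicate 1 and, within imBAT, both lowest in replicate 2; their part in the level of Rpl3l was not tested. Rpl10l, known in mice from spermatogenesis, had 2 counts in imBAT replicate 2, 2 in sham replicate 3 and none elsewhere.

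**Figure D4:**
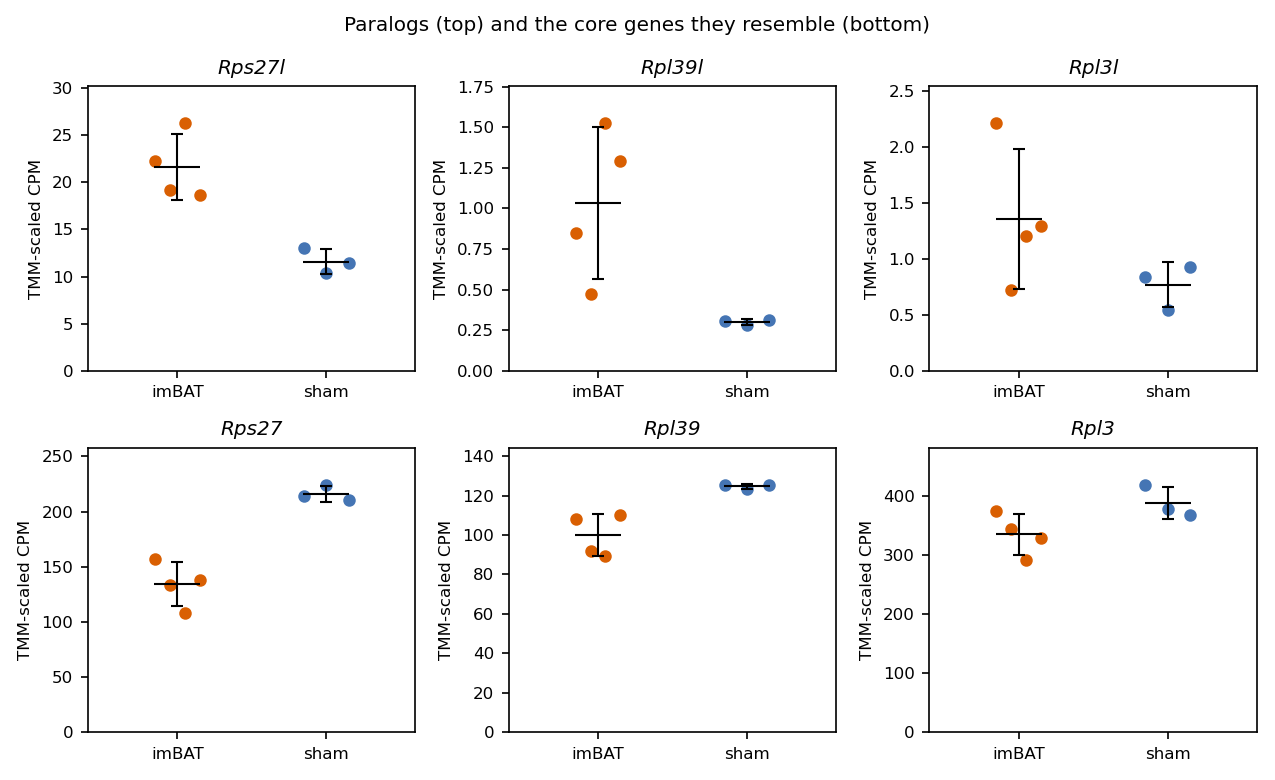
TMM-scaled CPM of the paralogs Rps27l, Rpl39l and Rpl3l (top) and of the core genes Rps27, Rpl39 and Rpl3 (bottom), with a point for each library and the mean ± SD of each group. Rps27l and Rpl39l are higher and Rps27 and Rpl39 lower in every imBAT library than in any sham library, while the groups overlap for Rpl3l and Rpl3.

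Ratios within a library were compared for 7 paralogs, a set chosen after the values were seen. With 4 against 3 libraries the smallest two-sided p of an exact permutation test is 0.0571, so no ratio could pass 0.05. The ratio reached that p for Rps27l, Rpl39l, Rps4l and Rpl22l1, with an adjusted p of 0.1 over the 7 ratios in the exact permutation test. Rps4l, a transcribed retrocopy of Rps4x that the rule leaves out as noncoding, was 3.09, 2.81, 6.80 and 2.35% of Rps4x in imBAT and 0.89, 0.97 and 0.79% in sham. Rpl22l1, a relative of Rpl22 that acts in T cell development, went the other way, at 6.09, 5.45, 6.26 and 6.96% of Rpl22 in imBAT and 8.94, 10.8 and 9.97% in sham. The ratios of Rpl36al to Rpl36a and of Rpl7l1 to Rpl7 overlapped between the groups.

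Of 7 ribosomal genes that the naming rule leaves out 2 fell, Rpl22l1 and Rack1 (28.6%, beside 19.3% of all tested genes), with a median log2 fold change of -0.29. Rack1, a signalling scaffold bound to the 40S head, had 527.4 ± 63.9 CPM in imBAT and 705.8 ± 81.8 CPM in sham (-0.42 ± 0.13, edgeR adjusted p = 0.0328), and its call was lost on leaving out any one sham library or imBAT replicate 2, and with the title number as a block. Rps3a1 lay at -0.29 ± 0.13 and Fau, which encodes a ubiquitin-like protein fused to Rps30, at -0.30 ± 0.13, and neither was called, except under upper-quartile scaling or without imBAT replicate 1. Over the 7 libraries the genes most like the mean of the ribosomal protein genes were Rps3a1 (Pearson r = 0.99), Bhlha15 (0.98), Nip7 (0.98), Ssrp1 (0.98) and H2bc8 (0.98), out of 16027 protein-coding genes. The 7 points share the 2 groups and are given as a description.

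Under TMM scaling ribosome assembly genes fell about as often as all genes, and rose less often. Of 45 tested, 9 fell (20%, beside 19.3% of all tested genes), with a median of -0.09. Only 1, Rrs1, rose (2.22%, beside 24.3%). Under upper-quartile scaling 25 fell (55.6%, beside 31.0% of all tested genes) and none rose (beside 17.9%). Among those that fell, the helicase Ddx21 had 109.0 ± 4.1 CPM in imBAT and 144.6 ± 3.3 CPM in sham, Nop56, a core protein of small nucleolar ribonucleoproteins, had 51.1 ± 7.0 CPM in imBAT and 74.3 ± 2.6 CPM in sham, and Wdr43, of the small-subunit processome, had 61.9 ± 3.1 CPM in imBAT and 80.1 ± 2.5 CPM in sham. The log2 fold changes were -0.41, -0.54 and -0.37.

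Under TMM scaling initiation factor genes rose as often as all genes did. Of 33, 8 rose (24.2%, beside 24.3% of all tested genes), with a median of 0.16, and edgeR called none lower (1 at an unadjusted p under 0.05, and 1 by DESeq2 and by limma voom). Under upper-quartile scaling 1 rose (3.03%, beside 17.9% of all tested genes) and 7 fell (21.2%, beside 31.0%). Eif4g1, the scaffold of the cap-binding complex, had 741.5, 671.6, 808.1 and 616.3 CPM in imBAT and 460.6, 393.3 and 401.7 CPM in sham (0.76 ± 0.13, edgeR adjusted p = 0.00289). Eif1ax and Eif2b1 rose by 0.54 and 0.44 on the log2 scale, and neither was called under upper-quartile scaling or without sham replicate 2 or 3, nor Eif2b1 without imBAT replicate 1 or 3. Of 13 genes of elongation and termination 3 rose (23.1%, beside 24.3% of all tested genes) and 1, the exchange factor Eef1b2, fell (7.69%, beside 19.3%). With upper-quartile scaling 1 rose (7.69%, beside 17.9%) and 5 fell (38.5%, beside 31.0%). The call of Eef1b2 (-0.36 ± 0.10) was lost on leaving out any one sham library and with the title number as a block. Eef2k, the kinase that inhibits elongation factor 2, rose to 76.1 ± 9.5 CPM in imBAT, against 37.2 ± 2.3 CPM in sham (1.03 ± 0.12, edgeR adjusted p = 0.00102), and the release factor Gspt1 rose by 0.28, a call lost under upper-quartile scaling, with no expression filter, and without imBAT replicate 1 or 3 or sham replicate 2 or 3. Eef1a1 and Eef2, whose mRNAs carry a TOP motif as those of the ribosomal proteins do, lay at -0.01 ± 0.14 and -0.02 ± 0.13 and took either sign with the settings.

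**Figure D5:**
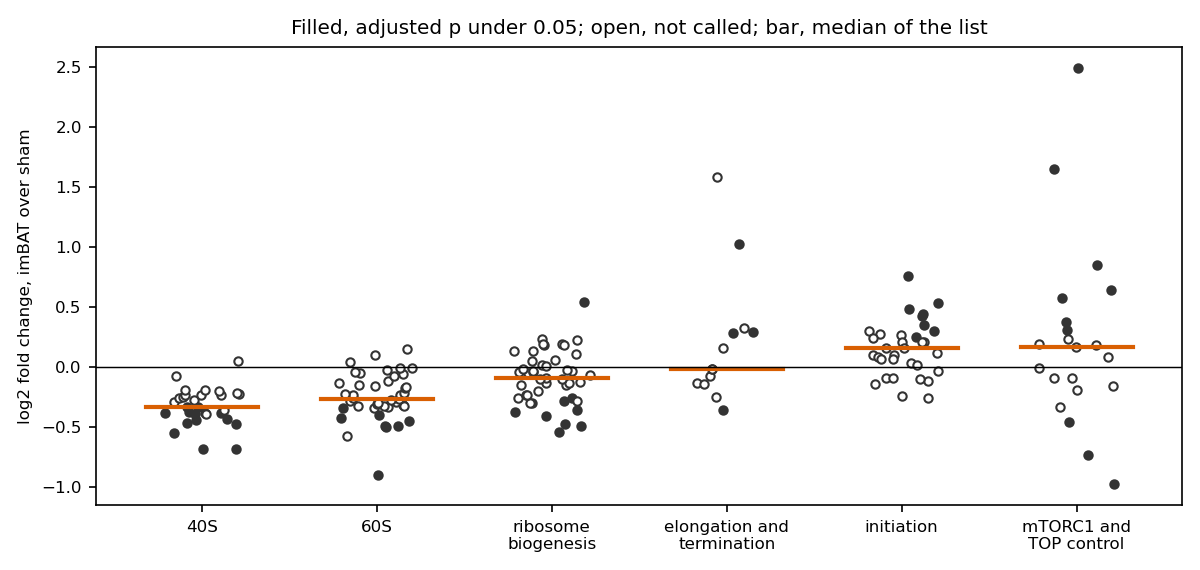
Log2 fold change of imBAT over sham for each tested gene of 6 lists, with called genes filled, other genes open and the median of each list as a bar. The medians are -0.33 for 40S, -0.26 for 60S, -0.09 for ribosome assembly (biogenesis), -0.01 for elongation and termination, 0.16 for initiation, and 0.16 for mTORC1 and TOP control, where 7 of 21 genes rose and 3 fell.

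The list of mTORC1 and TOP control also holds regulators of transcription such as Myc and Mycn. Of its 21 genes, 7 were higher (33.3%, beside 24.3% of all tested genes) and 3 lower (14.3%, beside 19.3%), with a median of 0.16. Under upper-quartile scaling 5 were higher (23.8%, beside 17.9% of all tested genes) and 8 lower (38.1%, beside 31.0%). The largest change was in Eif4ebp1, which encodes a repressor of cap-dependent translation released by mTORC1, at 149.9, 92.1, 187.6 and 125.7 CPM in imBAT and 25.8, 19.2 and 28.9 CPM in sham (2.50 ± 0.26, edgeR adjusted p = 0.000867). Every imBAT library lay above the sham libraries. Tsc2, an upstream inhibitor of mTORC1, rose by 0.58 ± 0.09, and Rps6kb2, the S6 kinase 2, fell to 40.7 ± 0.6 CPM in imBAT, against 55.9 ± 0.6 CPM in sham (-0.46 ± 0.08, edgeR adjusted p = 0.00293). Mtor rose by 0.38 ± 0.11 and Larp1 by 0.31 ± 0.10, and neither was called under upper-quartile scaling or without sham replicate 2 or 3, nor Larp1 without imBAT replicate 1, 2 or 3 or with the title number as a block. Myc, a driver of ribosomal gene transcription, was not called (0.18 ± 0.13, adjusted p = 0.283; -0.05 under upper-quartile scaling).

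Mitochondrial ribosomal protein genes, set beside the cytosolic ones, had 33 of 77 higher (42.9%, beside 24.3% of all tested genes) and 1 lower (1.3%, beside 19.3%), with a median log2 fold change of 0.41. Their summed level was 1611 to 2177 CPM in imBAT and 1334 to 1420 CPM in sham. The cytosolic genes had 2 of 79 higher and 24 lower in the same fit. These counts rest on TMM scaling. Upper-quartile scaling moved the median of all genes to -0.25, and the mitochondrial genes were not counted under it. The difference between the 2 families was not tested.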

How the data were processed

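The authors deposited raw read counts per gene. Reads were aligned with STAR 2.7.9a to Ensembl release 101, per the labels' protocols; the submitters' processing notes also name Salmon 1.5.2, Subread, featureCounts 2.0.3, limma and edgeR, without a role. For strand setting and multiply mapped reads nothing is given in the sources used here, so genes that overlap or have near-identical copies are uncertain. Of 55774 rows, 287 repeated an identifier with the same counts and were dropped. Columns were matched to libraries by title, groups came from the treatment label, and replicates were numbered in accession order.

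The comparison used edgeR 4.0.16 in R 4.3.3 (quasi-likelihood F test, robust, TMM, minimum count 10, group only, 5 residual degrees of freedom) with Benjamini-Hochberg adjustment over 26393 genes. Each SE is the fold change divided by the square root of F. Lengths and exon overlaps came from GENCODE M21. Alternatives were RLE and upper-quartile scaling, scaling without ribosomal protein genes, 2 other filters, DESeq2 1.42.0, limma 3.58.1 voom with quality weights, the title number as a block, each library left out, adjusted p under 0.10, and genes summed with named pseudogenes. The paralog ratios and principal-transcript lengths were added after seeing the data.

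Genes named are the largest changes among called ribosomal protein genes with groups apart, the 5 highest per kilobase, the paralogs, the 5 uncalled with the highest mean, a fixed set, and up to 3 called genes of each other list. The genes and lists were chosen with earlier results of these data known. On simulated counts for this comparison (25944 genes, 200 of them changed) edgeR recovered 29% of log2 changes of 1 and 63% of those of 2, with 11 false calls among 103. Far fewer genes changed there than the 43.5% called in the data, and genes of all levels were pooled. These rates therefore need not hold for the ribosomal protein genes. Libraries of a group differed beyond sampling noise (chi-square per degree of freedom 20.4 to 216.1).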

Additional observations from a re-analysis of the deposited data

How the results depend on the processing

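Rps27, Rps20, Rps24 and Rpl13a were called lower, and Rps27l higher, in every alternative fit. Against 24 falls, upper-quartile scaling gave 67 (84.8%, beside 31.0% of all genes, median -0.50) and leaving out each library in turn 6 to 30. With a library left out 2 to 3 genes rose, the median ran from -0.33 to -0.20, and calls over all genes from 7519 to 11403. With at least 1 CPM in 3 libraries 1 gene rose, since Rpl39l was removed, and with voom 3 rose, Rpl41 among them. Deviations from the group means were correlated between libraries whose titles open with the same number. The correlations were 0.102 for imBAT replicate 3 with sham replicate 1 and 0.114 for imBAT replicate 4 with sham replicate 2. Both lay above those of all pairs with unequal numbers (-0.143 to 0.0401). For imBAT replicate 1 with sham replicate 3 the correlation was -0.0138. So few pairs can neither show nor exclude a pairing by this number. With the title number as a replicate block 13 genes fell (16.5%, beside 17.6% of all genes). Uncalled genes near 0 changed sign. Upper-quartile scaling gave -0.20 for Rpl10 and -0.05 (-0.054) for Myc. Voom gave 0.04 for Rpl36, 0.07 for Eef1a1 and 0.08 for Eef2, and the block gave 0.002 for Eef2. Leaving out each library gave -0.049 to 0.139 for Rpl10, -0.121 to 0.042 for Rpl36, -0.074 to 0.077 for Eef1a1, -0.072 to 0.055 for Eef2, and -0.121 to 0.218 for the log2 ratio of Rpl36al to Rpl36a. The causes were not tested. Of 798 fold changes of named genes under the alternatives, 703 kept their direction and side of the threshold, 60 lost a call, 21 gained one and 14 changed sign. Depth limits Rpl24, Rpl39l and Rpl3l most, at 120 counts a library or fewer.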
